A study of Mus musculus with 4 samples.

Results

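Cluster 5 is 1 of 15 numbered cell clusters of differentiating mouse embryonic stem cells. Its members here are the 100 genes that the authors' deposited table of marker genes lists for it, taken as every entry of that cluster, out of 2212 entries for 1197 genes in the whole table. Each entry sets the cells of 1 cluster against all other cells, so the values below come from the contrast that chose the genes, and they are a description with no test. The cells were clustered on the same expression values.

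Embryonic stem cells carrying BRG1 3XFLAG, a tag on the chromatin remodelling ATPase BRG1, went through a cardiac differentiation in culture and were profiled as single cells in droplets. The series holds 4 libraries, 1 for each group. These are BRG1 3XFLAG mesoderm, BRG1 3XFLAG with BRM KO mesoderm, BRG1 3XFLAG at the cardiac stage, whose cells the labels call cardiac progenitors, and BRG1 3XFLAG with BRM KO at the cardiac stage. All 4 carry the tag, and BRM KO removes the alternative ATPase that Smarca2 encodes. The labels do not say how many clones each line represents. The table is pooled over cells and names no library, its deposited name speaks of the knockout alone, and no map from cells to libraries was used here. Genotype and stage were therefore not compared within cluster 5, and depth, cell numbers and barcodes shared between libraries are unknown.

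Mesenchyme is the loose, migratory connective tissue of the embryo, and part of it condenses into cartilage. Cartilage cells secrete a matrix of type II, IX and XI collagens with matrilins and aggrecan under the control of the transcription factor SOX9. Other mesenchymal cells, fibroblasts among them, secrete type I and III collagens, and TWIST and PRRX factors are widely used to mark mesenchyme. Mesoderm can give rise to such cells and to cardiac cells, but it is not the only source of mesenchyme.

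The label of cartilage-collagen mesenchyme was checked against marker lists. All 6 marker genes given for the cluster were listed higher in it, but they were taken from the same table and are no independent check. Of 13 cartilage markers, 4 were in the authors' deposited table (Col2a1, Col9a1, Matn4 and Sox9), and each of the 4 had a higher entry for cluster 5. The other cartilage markers, with aggrecan (Acan), Col11a1, Sox5 and Sox6 among them, passed the table's thresholds in 0 of the 15 clusters. Of 10 mesenchyme markers, 9 were in the table, and cluster 5 listed 4 as higher (Col3a1, Col1a2, Col1a1 and Twist2). Vim, Postn, Pdgfra, Twist1 and Prrx2 were listed for other clusters and not for this one. Sclerotome and neural crest markers, 5 and 6 genes, had no entry in the table, so neither source can be called from it. The 5 endothelial and blood markers had none either, but 4 genes of a longer endothelial and blood list of 24 were in the table (Egfl7, Flt1, Ramp2 and Sox17), listed for other clusters and not for cluster 5. None of the 4 cardiomyocyte, 3 neuron, 3 pluripotency and 2 endoderm markers in the table was listed for cluster 5, and of the epithelial and neural progenitor markers it listed only Krt8, Krt18 and Otx2, all lower. The cells are called mesenchyme-like with cartilage collagens here, on 4 genes of each kind, as a description of these entries. Col2a1, Col9a1, Matn4 and Twist2 are also among the 6 given markers. Beyond those, the cartilage side rests on Sox9 alone and the mesenchyme side on Col3a1, Col1a2 and Col1a1.

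Of the 1197 genes in the table, 4.09% were listed higher in cluster 5 (49 genes) and 4.26% lower (51 genes), and the counts of gene groups below stand against these shares. Every entry had a difference of at least 0.50 on the natural log scale, which is 1.65-fold, and detection in at least 25.1% of cells on one side. These are the smallest values seen in the table and are called its thresholds here, as the authors' settings are not stated. Each fold is the exponential of what the authors deposited. The higher genes ranged from 1.65-fold to 4.68-fold with a median of 2.40-fold, and the lower genes from 1.67-fold to 6.44-fold with a median of 2.04-fold, by the authors' deposited table. Just inside the threshold lay Gas5 and Fzd2 at 1.65-fold higher and Ncl at 1.67-fold lower by the authors' deposited table. Genes just outside it are not in the table. A higher gene was found in a median of 38.0% of the cells of cluster 5 against 14.6% of other cells, and a lower gene in 17.0% against 46.5%, by the authors' deposited table. Of the higher genes, 19 were found in at least 50% of the cells and 7 in under 5% of all other cells. Its cells made up 8.51% of the total, a size solved from the detection shares of the authors' deposited table.

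**Figure D1:**
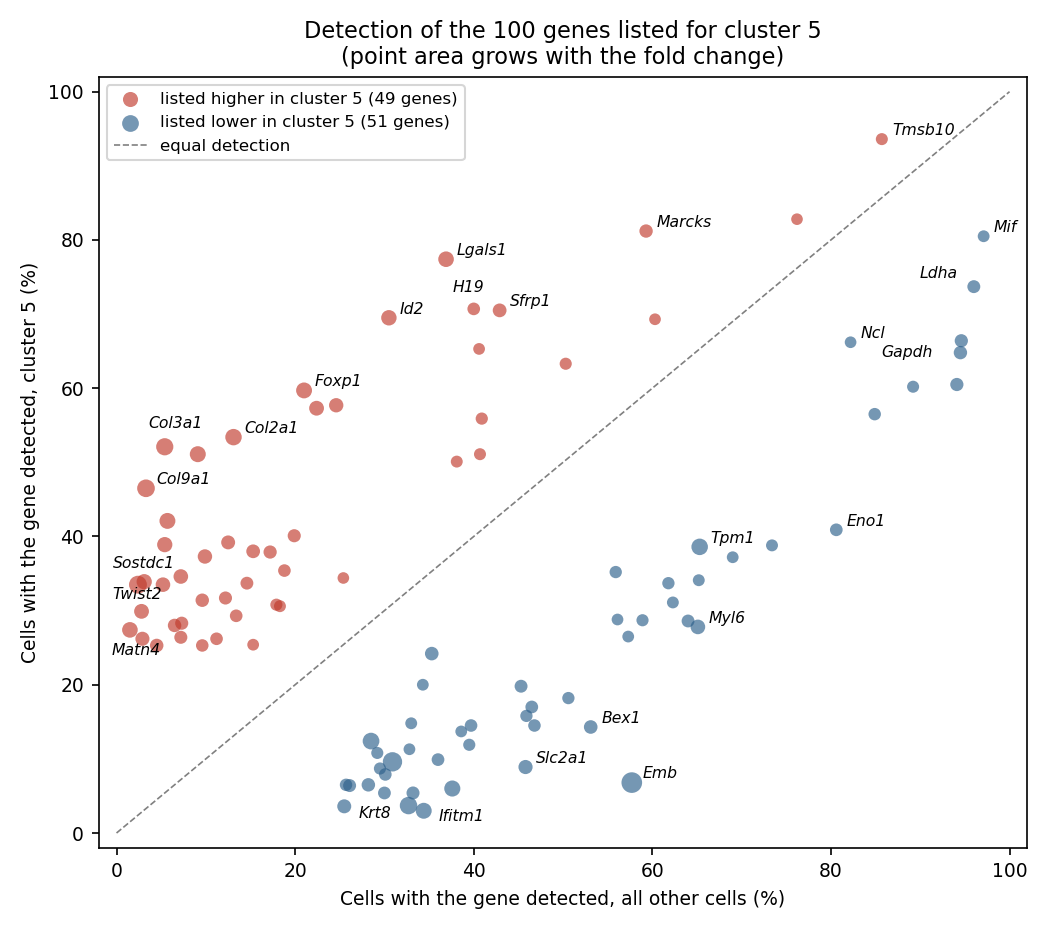
Percent of cells with each of the 100 genes detected in cluster 5 (vertical axis) and in all other cells (horizontal axis), from the authors' deposited table. The 49 higher genes lie above the dashed line of equal detection, with Col9a1 at 46.5% against 3.30%, and the 51 lower genes lie below it, with Emb at 6.80% against 57.7%.

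Promoter sequences are shown for 2 sets, a matrix gene and a transcription factor gene that hold SOX letters, and glycolysis genes that were lower in cluster 5. They are the 250 bases before the start site from RefSeq, build GRCm38.p6, which is not the mm9 build of the deposited data. Of the 49 higher genes 29 had a promoter there, and of the 51 lower genes 42. Col2a1, Sostdc1 and Sox9 were among those without one. In the first set capitals mark the SOX core letters AACAAT or ACAAAG on either strand, where overlapping matches run together. Col3a1 lies on the plus strand at chr1:45311288-45311537 and holds 3 matches. Foxp1 lies on the minus strand at chr6:99520994-99521243 and holds 1, and its window was the first among its 3 starts to hold a match.
Col3a1: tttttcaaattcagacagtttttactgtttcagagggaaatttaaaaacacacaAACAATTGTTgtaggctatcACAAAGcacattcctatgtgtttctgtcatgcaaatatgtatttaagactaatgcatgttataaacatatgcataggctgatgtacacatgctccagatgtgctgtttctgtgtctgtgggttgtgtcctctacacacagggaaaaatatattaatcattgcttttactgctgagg
Foxp1: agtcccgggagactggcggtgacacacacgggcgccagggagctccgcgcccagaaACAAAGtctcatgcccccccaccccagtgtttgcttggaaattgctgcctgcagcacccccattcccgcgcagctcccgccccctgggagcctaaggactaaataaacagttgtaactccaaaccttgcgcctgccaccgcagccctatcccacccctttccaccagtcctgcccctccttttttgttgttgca
SOX core letters were present for 9 of the 29 higher genes (31.0%), for 9 of the 42 lower genes (21.4%) and for 26.8% of all 27025 genes with a promoter, taking any start of a gene. The share among higher genes was near that of all genes. Of 6 matrix genes, the 5 collagens Col9a1, Col3a1, Col2a1, Col1a2 and Col1a1 and the matrilin Matn4, 4 had a promoter, and Col3a1 was the 1 among them with a match.

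In the second set capitals mark the hypoxia response core letters ACGTG or GCGTG on either strand. Slc2a1 lies on the plus strand at chr4:119108495-119108744, Gapdh on the minus strand at chr6:125165774-125166023 and Pgk1 on the plus strand at chrX:106186850-106187099, and each holds 2 matches.
Slc2a1: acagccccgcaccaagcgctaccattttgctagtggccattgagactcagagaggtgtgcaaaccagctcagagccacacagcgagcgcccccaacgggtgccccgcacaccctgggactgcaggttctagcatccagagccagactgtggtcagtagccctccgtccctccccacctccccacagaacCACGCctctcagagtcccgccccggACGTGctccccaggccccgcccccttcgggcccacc
Gapdh: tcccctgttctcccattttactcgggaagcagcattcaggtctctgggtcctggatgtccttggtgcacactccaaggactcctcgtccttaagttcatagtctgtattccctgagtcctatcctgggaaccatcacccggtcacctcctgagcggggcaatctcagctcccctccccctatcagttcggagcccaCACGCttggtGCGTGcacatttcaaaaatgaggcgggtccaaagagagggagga
Pgk1: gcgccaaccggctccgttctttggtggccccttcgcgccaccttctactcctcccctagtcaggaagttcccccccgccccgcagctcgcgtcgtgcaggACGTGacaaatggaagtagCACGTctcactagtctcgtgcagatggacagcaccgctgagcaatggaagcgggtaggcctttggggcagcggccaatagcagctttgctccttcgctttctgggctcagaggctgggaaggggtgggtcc
These letters were present for 11 of the 13 glycolysis and hypoxia genes that were lower in cluster 5 (84.6%). They were present for 62.1% of the other lower genes, 55.2% of the higher genes and 41.5% of all genes with a promoter. The median share of G and C was 62.8%, 58.0%, 60.0% and 52.4% in these groups in the same order, and its part in the counts was not tested. A match of letters is a description of the window and not a binding site. The list was drawn up for hypoxia as well as glycolysis, and its members that were not lower in cluster 5 were not counted. Its share of hypoxia letters therefore cannot be tied to being lower in this cluster.

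Cartilage matrix genes were among the leading genes of cluster 5. Of 23 genes on the cartilage matrix list 4 were in the table, and cluster 5 listed 3 as higher. Col9a1, a chain of the type IX collagen that coats cartilage fibrils, was detected in 46.5% of the cells inside and 3.30% outside and was 4.56-fold higher by the authors' deposited table. Col2a1, the main fibrillar collagen of cartilage, was detected in 53.4% inside and 13.1% outside and was 3.88-fold higher by the authors' deposited table. Matn4, a matrilin that links matrix fibrils, was detected in 27.4% inside and 1.5% outside and was 3.45-fold higher by the authors' deposited table. The 3 genes were not equally restricted. Of all cells with Matn4 detected 62.9% lay in cluster 5, as did 56.7% of those with Col9a1 but only 27.5% of those with Col2a1, derived from the authors' deposited table. Outside the 3 clusters that list it, Col2a1 was still found in 10.9% of cells, against 1.68% for Col9a1.

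Sox9, the master regulator of cartilage, was detected in 37.3% of the cells inside and 9.90% outside and was 2.85-fold higher by the authors' deposited table. It was the only one of 23 cartilage and sclerotome regulators listed for cluster 5, and only Mef2c of the others was in the table at all. Sox9 is also a gene of neural crest and neural progenitors, and of 22 neural crest genes only Sox9 and Zic1 were in the table, of which cluster 5 listed Sox9.

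Collagens of fibrous connective tissue were higher beside the cartilage genes. Col3a1, the type III collagen of soft connective tissue, was detected in 52.1% of cells inside and 5.40% outside and was 4.30-fold higher by the authors' deposited table. The chains of type I collagen were also higher, Col1a2 at 3.63-fold with 51.1% of cells against 9.10% and Col1a1 at 2.26-fold with 28.3% against 7.30%, by the authors' deposited table. Of 38 genes on the fibrous matrix and fibroblast list 20 were in the table, of which cluster 5 listed 7 as higher and 0 as lower. The other 4 were the small proteoglycan Bgn at 3.25-fold, the galectin Lgals1 at 3.43-fold and the microfibril genes Mfap2 at 2.81-fold and Mfap4 at 2.62-fold, by the authors' deposited table. Emid2, an older symbol of the collagen gene Col26a1, was 2.41-fold higher by the authors' deposited table. Of the 11 basement membrane genes in the table, which include Col4a1, Col4a2 and the laminins Lama1, Lamb1 and Lamc1, 0 were listed for cluster 5 in either direction. Tgfbi, a secreted adhesion protein induced by TGF-beta, was detected in 42.1% of cells inside and 5.70% outside and was 3.60-fold higher by the authors' deposited table.

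Transcription factors of mesenchyme were higher for 4 of the 9 list members in the table, of 32 listed. Foxp1, a forkhead repressor, had the widest detection of these at 59.7% of cells inside and 21.0% outside, and was 3.59-fold higher by the authors' deposited table. Twist2, a basic helix-loop-helix factor of dermal and skeletal mesenchyme, was detected in 29.9% inside and 2.80% outside and was 3.04-fold higher by the authors' deposited table. Foxd1 at 2.92-fold and Foxp2 at 2.41-fold were found in 33.5% and 25.3% of the cells inside by the authors' deposited table. Osr1 and Tbx18, factors of other mesodermal mesenchyme, and Twist1 were higher in cluster 10 and were not listed for cluster 5. The developmental regulators Tshz2 at 2.53-fold and Sox4 at 1.89-fold were higher as well by the authors' deposited table. The table also names an entry Ebf1.1, at 3.26-fold with 33.9% of cells against 3.10%, whose suffix matched no gene symbol, and it is given as the authors' deposited table spells it. No Hox gene was listed for any cluster, of 32 looked up.

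The gene with the highest fold was a secreted inhibitor. Sostdc1, an antagonist of BMP and Wnt signals, was detected in 33.5% of the cells inside and 2.40% outside and was 4.68-fold higher by the authors' deposited table. Of the cells with Sostdc1 anywhere, 56.5% lay in cluster 5. Sfrp1, a secreted Wnt antagonist, was detected in 70.5% inside and 42.9% outside and was 2.55-fold higher by the authors' deposited table. Clusters 0 and 7 also listed Sfrp1 higher, in 70.9% and 84.8% of their cells, and 8 clusters listed it lower. Sostdc1 and Sfrp1 were 2 of 8 BMP and Wnt antagonists in the table. Dkk1, Cer1, Fst, Frzb, Bambi and Fstl1 were not listed for cluster 5. Shisa2, which restrains Wnt and FGF receptors, was 2.94-fold higher by the authors' deposited table. On the receiving side, Id2 and Id1, direct targets of BMP signals that hold back differentiation, were 3.34-fold and 1.77-fold higher by the authors' deposited table. Id2 was found in 69.5% of the cells of cluster 5, while in clusters 0, 3, 7 and 8 it was found in between 2.70% and 4.50% and listed lower by the authors' deposited table. Clusters 1 and 11 also listed Id2 higher, in 67.2% and 79.6% of their cells. Id1 was found in 50.1% of cluster 5, and was also listed higher in clusters 1 and 9, at 61.5% and 63.1%. Clusters 0, 7 and 8 listed Id1 lower. The BMP ligand genes Bmp4 and Bmp7 and the target Id3 were in the table and not listed for cluster 5. The Wnt receptor Fzd2 was 1.65-fold higher by the authors' deposited table, next to the threshold, and 1.55-fold higher with cluster 2 taken out of the reference, which is under it.

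Of 15 genes of the insulin-like growth factor system 8 were in the table, and cluster 5 listed 2 as higher (Igfbp4 and H19) and 1 as lower (Igfbp2). The insulin-like growth factor binding protein Igfbp4 was 3.04-fold higher with 57.3% of cells against 22.4%, and Igfbp2 was 1.93-fold lower with 35.2% against 55.9%, by the authors' deposited table. H19, an imprinted noncoding RNA, was 2.06-fold higher and Snrpn, an imprinted gene of RNA splicing, 1.92-fold lower by the authors' deposited table. Clusters 7 and 14 also listed H19 higher, and clusters 3, 8 and 12 listed it lower. Of 11 G1 cyclins and cell cycle inhibitors in the table cluster 5 listed 1, the cyclin Ccnd2, at 1.70-fold higher by the authors' deposited table. Ccnd2 was found in 65.3% of cluster 5. It was also listed higher in clusters 1, 4, 6, 11 and 12, at between 70.6% and 92.5% of cells, and lower in 6 clusters. It was under the threshold with cluster 2 or cluster 3 taken out of the reference, at 1.53-fold and 1.58-fold higher. Of the 12 S phase and 24 G2 and M phase genes in the table, 0 were listed for cluster 5 in either direction. All 10 mitochondrially encoded genes and the 3 BAF complex genes in the table were likewise not listed for it. Nor were any of the 13 cardiac progenitor, 14 neuron and 10 pluripotency genes in the table, and of 30 cardiomyocyte contractile genes it listed only Tpm1.

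The 20 leading genes differed in how far other clusters shared them. Of the 49 higher genes, 14 were listed higher in no other cluster, and 10 of these had no entry in any other cluster in either direction. The 10 were Matn4, Twist2, Sox9, Foxp2, Shisa2, Tshz2, Ppap2b, Pdlim4, Auts2 and the Ebf1.1 entry. Absence of an entry means only that the table's thresholds were not passed there. Over the whole table only 407 of the 1197 genes were listed for 2 or more clusters. An entry for 1 cluster alone was thus common and not particular to cluster 5, and 0 of its 51 lower genes had this. Most of the other higher genes were shared with cluster 10, whose cells are mesenchyme-like with Postn and Tbx18. It listed 30 of the 49 higher genes as higher (61.2%, which were 36.6% of the 82 higher genes of cluster 10). Cluster 11 listed 8 of them as higher, which were 80.0% of its own 10 higher genes, and cluster 9 listed 9. These comparisons share most of their reference cells, and the counts are given only because the entries of the same genes were looked up in each cluster.

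**Figure D2:**
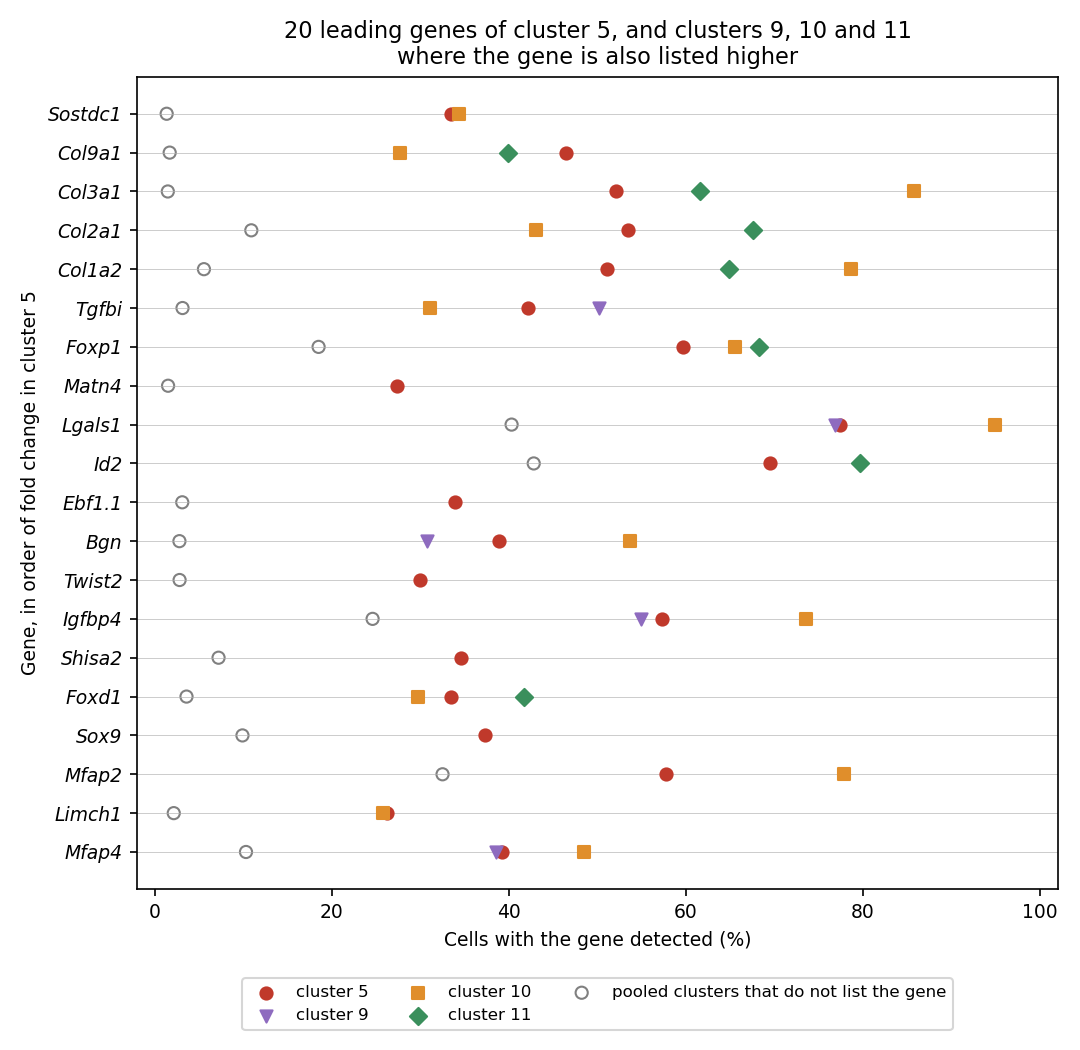
Percent of cells that detected each of the 20 genes with the highest fold in cluster 5, in cluster 5 (red circles), in clusters 9, 10 and 11 where the gene was also listed higher, and over the pooled clusters that do not list it (open circles). Matn4, Ebf1.1, Twist2, Shisa2 and Sox9 have a filled symbol for cluster 5 alone, and Col3a1 is found in 85.7% of cluster 10 against 52.1% of cluster 5.

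The detection of the same genes inside cluster 5 and inside cluster 10 comes from separate cells and was set side by side. Col9a1 was found in 46.5% of the cells of cluster 5 and 27.7% of those of cluster 10, and Col2a1 in 53.4% and 43.1%, by the authors' deposited table. The fibrous collagens had the opposite order. Col3a1 was found in 52.1% of cluster 5 and 85.7% of cluster 10, Col1a2 in 51.1% and 78.6%, and Col1a1 in 28.3% and 59.7%, by the authors' deposited table. Sostdc1 was found in 33.5% and 34.4%, so this leading gene was detected about as often in cluster 10.

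Levels in the 2 clusters were also compared, each taken relative to the level over all cells, for the 66 genes listed for both. Of these, 60 lay within 0.5 on the natural log scale. Col9a1 was the 1 gene higher in cluster 5 beyond that bound (1.52% of the 66), at 1.74-fold. Higher in cluster 10 were 5 genes (7.58%), Igfbp2 at 3.07-fold, Col3a1 at 2.10-fold, Col1a1 at 2.09-fold, Col1a2 at 1.95-fold and Lgals1 at 1.88-fold. Col2a1 was 1.44-fold and Sostdc1 1.29-fold higher in cluster 5, inside the bound. Igfbp2 was the only gene listed in opposite directions, in 35.2% of the cells of cluster 5 and 79.0% of those of cluster 10 by the authors' deposited table. The 34 genes that cluster 10 does not list could not be compared, so the 66 genes do not show how alike the clusters are.

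**Figure D3:**
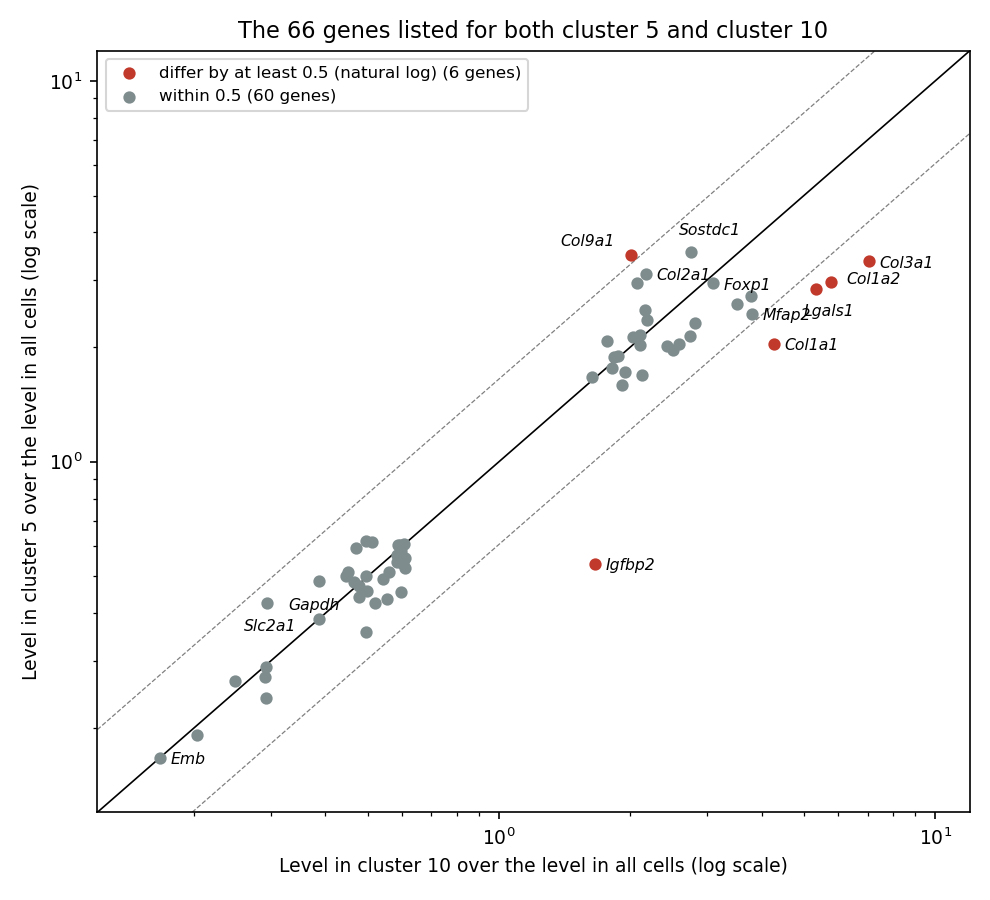
Level in cluster 5 (vertical, log scale) and in cluster 10 (horizontal, log scale), each over the level in all cells, for the 66 genes listed for both, derived from the authors' deposited table. Dashed lines stand 0.5 apart from equality on the natural log scale, and the 6 red genes lie beyond them, with Col9a1 above and Igfbp2 and the collagens of types I and III below.

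Against cluster 11 the same comparison covered 25 genes. Higher in cluster 5 were 3 of them (12%), Col9a1 at 2.12-fold, Foxp1 at 1.76-fold and Id2 at 1.70-fold, and Emb was the 1 gene higher in cluster 11 (4%), at 1.96-fold. Detection went the other way for most genes, since only Col9a1 was found in more of the cells of cluster 5. Foxp1 was found in 59.7% of cluster 5 and 68.2% of cluster 11, and Col2a1 in 53.4% and 67.6%, by the authors' deposited table. The part of depth in this difference was not tested.

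The glycolysis and hypoxia list had the most lower members of the gene lists. Of its 35 genes 24 were in the table, of which cluster 5 listed 13 as lower and 0 as higher, against 4.26% of all genes in the table listed lower. Their median was 2.08-fold lower, against 2.04-fold over all 51 lower genes. The glucose transporter Slc2a1 was detected in 8.90% of the cells inside and 45.8% outside and was 2.73-fold lower by the authors' deposited table. The glycolytic enzymes Gapdh, Aldoa and Pkm2, which is the older symbol of the pyruvate kinase gene Pkm, were 2.38-fold, 2.31-fold and 2.30-fold lower by the authors' deposited table. Each of these enzymes was found in between 60.5% and 66.4% of the cells of cluster 5, against 94.1% to 94.6% of other cells, by the authors' deposited table. Lactate dehydrogenase Ldha was 2.18-fold, enolase Eno1 2.08-fold, Pgk1 1.82-fold, Pgam1 1.78-fold and Gpi1 1.75-fold lower by the authors' deposited table. The lactate exporter Slc16a3 was found in 11.9% of cells inside and 39.5% outside, and the mitophagy gene Bnip3 in 14.5% and 39.7%, by the authors' deposited table. Gyg, which primes glycogen synthesis, was 5.59-fold lower, and Mif, a cytokine gene on the same list, 1.73-fold lower by the authors' deposited table. Gyg was listed lower also in 8 other clusters and higher in clusters 2 and 13. Slc2a1 was listed lower also in 6 other clusters and higher in cluster 2.

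Part of the reference for these genes was cluster 2, the cardiomyocyte-like cells, which held 12.6% of all cells and listed 17 of the 24 list genes as higher. Taking cluster 2 out of the reference left 5 of the 9 lower genes that both clusters list beyond the threshold, in an alternative chosen after seeing the data. Slc2a1 was then 2.52-fold lower, Gapdh 2.02-fold, Ldha 1.92-fold, Aldoa 1.88-fold and Slc16a3 1.70-fold lower. Gyg was 1.65-fold lower, just under the threshold, and Pgk1, Gpi1 and Bnip3 were 1.60-fold, 1.46-fold and 1.41-fold lower. Pkm2, Eno1, Pgam1 and Mif were not listed for cluster 2 and were not recomputed. Cluster 10 listed 10 of the 24 genes as lower and cluster 14 listed 8, while the other clusters listed between 0 and 3.

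Detection in cluster 5 was low for the size of the fold, set against the pooled entries of all clusters. Among genes within 0.75 on the natural log scale, the median difference inside minus outside was 12.9 percentage points for the 17 higher genes and -27.6 for the 29 lower genes, against 24.7 and -19.4 over the entries of all clusters. Cluster 10 had 16.7 and -23.7. The pool of all clusters is uneven, as clusters 2 and 14 held 580 and 424 of all 2212 entries in the table. Whether cells of cluster 5 held fewer molecules in all is unknown, and the part of depth in the lower detection was not tested. Tmsb10 and Gas5, which most cells express, were found in 93.6% and 82.8% of cells inside and in 85.7% and 76.2% outside by the authors' deposited table. Both are in view because they were listed higher in cluster 5, so their detection says nothing about depth. Gas5 was 1.52-fold higher, under the threshold, with cluster 2 taken out of the reference.

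**Figure D4:**
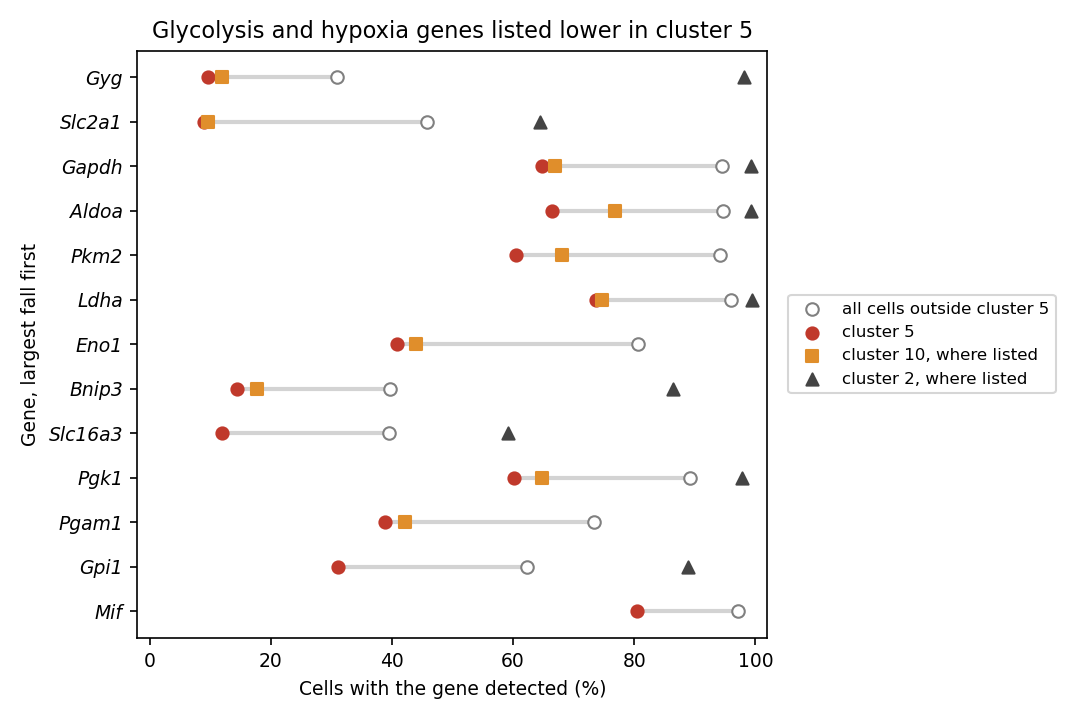
Percent of cells that detected each of the 13 glycolysis and hypoxia genes listed lower in cluster 5, in cluster 5 (red), in all other cells (open circles), and in clusters 10 (squares) and 2 (triangles) where listed. All 13 red points lie left of the open circles, from 8.90% against 45.8% for Slc2a1 to 80.5% against 97.1% for Mif.

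The largest difference of all 100 genes was in Emb, a membrane partner of lactate transporters. It was found in 6.80% of the cells of cluster 5 and 57.7% of other cells and was 6.44-fold lower by the authors' deposited table. Of the clusters that list Emb, cluster 10 was next with the gene in 9.20% of its cells, while clusters 3 and 7 had it in 99.0% and 90.7% and listed it higher, by the authors' deposited table. In all, 9 other clusters also listed Emb lower. With cluster 3 taken out of the reference Emb was 4.55-fold lower. Bsg, the related gene basigin, was 1.98-fold lower in cluster 5 by the authors' deposited table, but 1.52-fold lower without cluster 2 in the reference and then under the threshold.

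Among 10 epithelial genes in the table, cluster 5 listed 2 as lower and 0 as higher, and of 11 primitive streak genes 1 was lower and 0 higher. The simple epithelial keratins Krt8 and Krt18 were 4.46-fold and 3.69-fold lower and were found in 3.70% and 6% of cells inside, against 32.7% and 37.6% outside, by the authors' deposited table. With cluster 3, which listed both keratins higher, taken out of the reference, Krt8 was 2.43-fold and Krt18 2.48-fold lower. Each keratin was listed lower also in 7 other clusters. Cluster 14 listed both higher as well, and cluster 9 listed Krt18 higher. The other 8 epithelial genes in the table were not listed for cluster 5, and neither were the other 10 primitive streak genes, T, Lhx1, Aplnr and Sp5 among them. Cdh2, a cadherin gene, was found in 5.40% inside and 33.2% outside and was 2.22-fold lower by the authors' deposited table. It was listed lower also in clusters 8, 10 and 14 and higher in cluster 2. Ifitm1, a membrane gene of early mesoderm, was found in 3.00% inside and 34.4% outside and was 3.61-fold lower by the authors' deposited table. Ifitm1 was listed lower also in 9 other clusters and higher in clusters 0, 3 and 7. Otx2, a forebrain factor, was found in 5.40% and 30.0% by the authors' deposited table, and was lower also in clusters 2, 9, 10 and 14.

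Contractile and cytoskeletal genes were lower for 4 of the 12 smooth muscle and actin genes in the table, and 0 were higher. Myl9, a regulatory myosin light chain, was 4.02-fold lower, Tpm1, a tropomyosin, 3.92-fold, Csrp1 2.20-fold and Tagln2 2.17-fold lower by the authors' deposited table. Other clusters listed these genes lower too, 10 for Myl9, 7 each for Tpm1 and Tagln2 and 4 for Csrp1. Listing them higher were 2 clusters each for Myl9, Tpm1 and Csrp1 and 4 for Tagln2. Myl9 was 1.24-fold lower with cluster 2 taken out of the reference, under the threshold. Tpm1 was then 1.69-fold and Tagln2 2.39-fold lower, both beyond the threshold, and Csrp1 1.46-fold lower. The antioxidant gene Gpx3 and Hcfc1r1 turned from 2.47-fold and 1.71-fold lower to 1.06-fold and 1.01-fold higher. Over all 37 lower genes that clusters 5 and 2 both list, 22 still passed the threshold without cluster 2, and of 10 such higher genes 7 did.

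The remaining lower genes were of mixed function. The Bex family of small adaptor proteins had 3 members lower, Bex1 at 2.48-fold, Bex4 at 2.01-fold and Bex2 at 1.70-fold by the authors' deposited table, a group chosen after its values were seen. The chaperone Hsp90aa1 was found in 28.6% of cells inside and 64.0% outside and the polyamine enzyme Odc1 in 15.8% and 45.9% by the authors' deposited table. Slc16a3 and Bex4 were listed lower in no other cluster. The lower genes had entries in a median of 5 other clusters, against 2 for the higher genes.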

How the data were processed

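Reads of single cells from 4 libraries went through Cell Ranger and Seurat on mm9, per the submitters' processing notes. Versions, cell filters, doublet treatment, clustering settings and the libraries behind the clusters are not stated in the labels or the file. The authors deposited 1 table of marker genes, with natural log fold changes (ln, avg_logFC), the fraction of cells detecting a gene inside and outside each cluster, and p-values over cells, per the file header. Cells are not replicates, so the p-values served only as a filter in 1 alternative. The deposited adjusted p-value was the p-value times 37991. The natural base was checked on Gpx3, listed for 14 clusters with 99.7% of cells: its levels summed to 99.6% of the total with natural logs, 90.1% with base 2 and 125% with base 10. No label or header gives the constant the authors added before logs, and folds of weakly detected genes may be understated.

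The size of each cluster was solved by least squares from 407 genes listed for 2 or more clusters (1015 equations, residual SD 0.0364 percentage points, sizes summing to 100.01%). A gene's level in a cluster over all cells follows from its fold and that size. Steps were tested on simulated data. Of the 100 genes, 91 matched a current RefSeq symbol and 8 an older one. Genes were named by a rule that takes the 20 highest and 12 lowest folds, the 6 markers and members of the gene lists, and other genes of cluster 5 where the text singles them out. The result of 1 lower gene is not reported here. The members and lists were chosen with earlier results of these data known. Alternatives were stricter thresholds, other solvers and rankings, and a reference without cluster 2, 3 or 10. Software was Python 3.11.15 with pandas 2.3.3 and numpy 2.4.6 for tables, scipy 1.17.1 for a solver and matplotlib 3.10.9 for plots.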

Additional observations from a re-analysis of the deposited data

How the results depend on the processing

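No value has a replicate, and depth is unknown. No paired analysis was possible because each group holds 1 library and the table names none. The counts depend on the thresholds by construction, as fewer genes pass stricter ones. With the absolute natural log change held to 1 or more there were 18 higher genes, 9 lower genes and 9 genes higher in no other cluster, in place of 49, 51 and 14. With detection in at least 50% of cells on the higher side these counts were 19, 24 and 3. An adjusted p of at most 1e-50 left 49 and 50, and leaving out ribosomal, mitochondrial and predicted genes left 48, 50 and 13. Ranking by the ratio of detection kept 5 of the 10 leading genes, and ranking by its difference kept 8. The size of cluster 5 was 8.51% under each of the 3 other solutions. In alternatives added after seeing the data, taking cluster 2 out of the reference left 22 of 37 lower genes and 7 of 10 higher genes beyond the threshold, taking out cluster 3 left 14 of 14 lower and 6 of 7 higher genes, and taking out cluster 10 left all 36 lower and all 30 higher genes.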
